A study of Mus musculus with 12 samples.

Results

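The 42 genes described here encode the machinery that copies DNA in S phase, from the proteins that license replication origins to the enzymes that make deoxynucleotides, together with the cyclins E1 and E2 and the transcription factor E2F1. They were taken by name, from a list drawn up with earlier results of these data known, and are 42 of the 38911 genes listed for the series. All 42 were found and all 42 were among the 16966 genes with enough reads to be tested.

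Before a cell enters S phase, the origin recognition complex, CDC6 and CDT1 load the ring-shaped MCM2-7 helicase on DNA. Cyclin E with its kinase partner, and a further kinase, then convert the loaded ring into a running helicase by adding CDC45 and the GINS complex. Polymerase alpha with primase starts each new strand, polymerases delta and epsilon extend it on the sliding clamp PCNA, and FEN1 and DNA ligase 1 join the pieces of the lagging strand. Many of these genes are transcribed late in G1 under E2F factors. Cells of the gastrulating mouse embryo and of ES cell cultures divide fast and spend a large part of their cycle in S phase.

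The RNA came from gastruloids, aggregates of mouse embryonic stem (ES) cells that break symmetry and form a posterior pole in culture. Each gastruloid was started from 200 E14TG2a ES cells, a mouse line grown on feeder fibroblasts in its first passages and then kept in 2iLIF medium without them, and was collected at day 4. From day 3 to day 4 the gastruloids were held in medium with 21.25 mM glucose (1× glucose, the control), without glucose (0× glucose), with 63.75 mM glucose (3× glucose) or with 5 mM 2-deoxy-D-glucose (2-DG), an inhibitor of glucose use, added to 1× glucose, and the comparisons ask how each treatment altered the transcriptome. Every treatment had 3 libraries, 1 each from ES cells at passages 13, 15 and 16, so that the 12 libraries form 3 sets of 4. All groups share the line, the ES cell medium, the number of cells plated and the day of collection. The gastruloids given 1 treatment on a plate were pooled for each library. A passage is 1 culture of ES cells, so the spread between libraries is a spread between cultures of 1 line.

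Library totals ran from 31902471 to 45956080 estimated read counts and were highest at 1× glucose (38439471 to 45956080, against 33666332 to 37496932 for 2-DG). The least abundant member in any library, Ccne2, still had 1113 counts and the most abundant, Mcm7, had up to 24909. Levels are given as CPM, a gene's count scaled to a fixed total per library. In bulk RNA, fewer cells of a type and less RNA per cell cannot be told apart. Marker genes of cell types moved with 2-DG. The summed level of 10 mesoderm and tail bud markers was 876 to 1381 CPM at 1× glucose and 531 to 687 CPM with 2-DG, and T, the leading mesoderm gene, was at 225 ± 84.6 and 75.9 ± 17.5 CPM (SD, n = 3). Sox1 of neural progenitors was at 5.58 ± 2.01 and 19.9 ± 8.11 CPM, Tubb3 of neurons at 6.76 ± 1.76 and 17.8 ± 2.52, Pou5f1 of pluripotent cells at 33.3 ± 8.49 and 48.8 ± 5.91, and Col1a1 of fibroblasts at 0.489 ± 0.0613 and 0.646 ± 0.0242. The 8 pluripotency markers summed to 38.7 to 52.4 and to 60.5 to 73.6 CPM, without overlap. The 8 early neuron markers summed to 31.0 to 61.8 and to 47.9 to 70.1 CPM, with overlap. Of the markers tested, 1 of 7 for pluripotency and 2 of 6 for early neurons, all higher, had an edgeR adjusted p under 0.05. The sums of 8 neural progenitor markers (193 to 452 and 211 to 401 CPM), 6 endoderm markers (31.7 to 201.3 and 30.7 to 86.1 CPM) and 7 fibroblast markers (11.3 to 15.1 and 10.7 to 14.5 CPM) overlapped, and those of 6 endothelial and blood markers did not (3.07 to 10.4 and 1.82 to 1.99 CPM). The neural progenitor markers did not move together. With 2-DG against 1× glucose the fitted log2 fold change was above 0 for 5 of the 8 and below 0 for 3, from -1.47 to 1.84. Only 2 of the 8, both higher, had an edgeR adjusted p under 0.05. None of the markers was at 0 in all 1× glucose libraries, and with 2-DG Gata1, Lum and Postn were. At 0× and 3× glucose the mesoderm sum was 808 to 1404 and 959 to 1400 CPM. The part of these markers in the results on the replication genes was not tested.

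Divided by the length of its transcript, Pcna had the highest level of the 42 genes at 1× glucose, 228 ± 19.7 CPM per kilobase (SD, n = 3). Mcm7 followed at 176 ± 9.06, and then Mcm5 at 140 ± 6.12, Mcm2 at 140 ± 8.66, Mcm6 at 137 ± 11.3, Rrm2 at 133 ± 10.4 and Mcm3 at 119 ± 3.40 CPM per kilobase, of which the neighbours from Mcm5 to Rrm2 did not differ beyond their SDs. In the clamp loader, Rfc3 was at 80.6 ± 4.52 and Rfc2 at 23.7 ± 2.24 CPM per kilobase. The lowest were Ccne2 at 15.04 ± 2.49, E2f1 at 16.1 ± 0.860 and Gins3 at 16.2 ± 0.346 CPM per kilobase, again within their spread of each other.

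**Figure D1:**
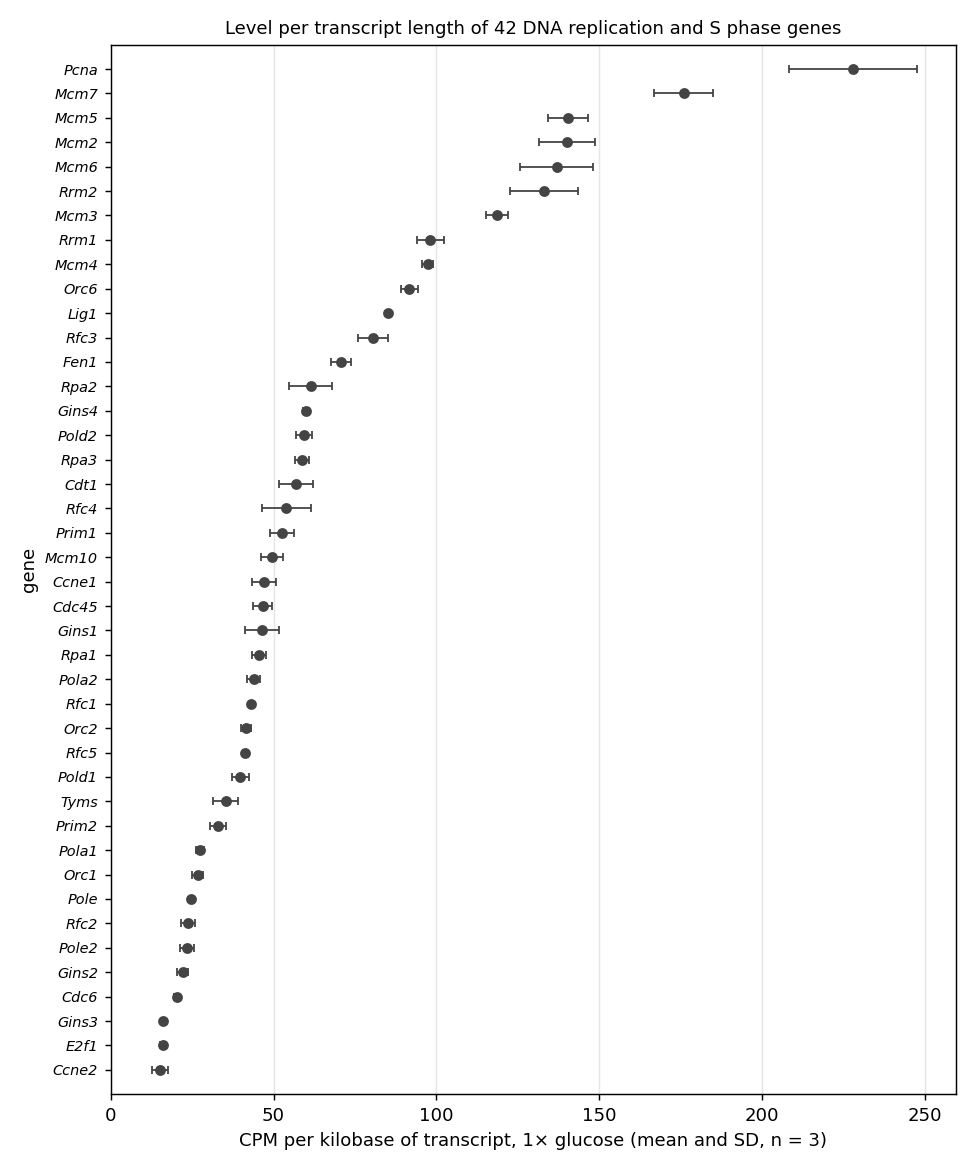
Level of each of the 42 genes at 1× glucose in CPM per kilobase of its transcript (horizontal axis, points and bars are mean and SD of 3 libraries), genes ordered by level. Pcna stands highest at 228 CPM per kilobase and Ccne2 lowest at 15.04.

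With 2-DG, 13 of the 42 genes fell against 1× glucose and 2 rose. The 15 genes called make 35.7% of the members, where 17.6% of all genes tested were called. The genes that fell, 31.0% of the members against 8.51% of all genes, were Orc1 and Orc2 of the origin recognition complex, the helicase genes Mcm3 and Mcm7, the helicase activators Mcm10 and Gins4, the clamp loader gene Rfc3, the polymerase and primase genes Pola1, Prim2, Pold2 and Pole2, the ribonucleotide reductase gene Rrm1 and the cyclin gene Ccne1. Pola2 and Rfc5 rose, 4.76% of the members against 9.12% of all genes. The test was edgeR's quasi-likelihood test over all 16966 genes, and a gene was called where its Benjamini-Hochberg adjusted p was under 0.05. When only genes with a mean of at least 100 counts were tested, 17 members were called (40.5%, against 23.3% of all genes).

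The differences were small. Fitted log2 fold changes, scaled by TMM factors, ran from -0.44 for Mcm10, which fell by 26.1%, to 0.19 for Pola2, 14.3% higher, with a median over the 42 members of -0.12 (-7.74%) beside 0.0023 over all genes tested. The fitted value was below 0 for 36 of the 42 members. In 22 members (52.4%, against 17.2% of all genes) every 2-DG library lay below every 1× glucose library, and in 2 members (4.76%, against 18.3%) every 2-DG library lay above.

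Summed over the 42 genes, the level was 7380, 7243 and 7109 CPM at 1× glucose in passages 13, 15 and 16. It was 6764, 6567 and 6523 CPM with 2-DG in the same order, a difference of -8.35%, -9.33% and -8.25% from the 1× glucose library of the same passage. The 0× glucose libraries differed from their 1× glucose partner by -0.953% to 0.889%, and the 3× glucose libraries by -0.779% to 0.453%.

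With the passage as a replicate block 27 members were called (64.3%, against 41.3% of all genes), 23 lower (54.8% against 20.2%) and 4 higher (9.52% against 21.1%). The 12 added by the block were Mcm5, Mcm6, Gins2, Pcna, Prim1, Pole, Rpa1, Rpa2, Rrm2 and Ccne2, lower, and Cdc6 and Cdt1, higher. Of the 15 genes called without it, 8 were called with each of the 6 libraries left out in turn. They were Orc1, Orc2, Mcm10, Gins4, Rfc3, Pola1, Pold2 and Rrm1. All treatment fits that left out a library, here and below, held no passage term, so the passages were then unbalanced between the groups. No library was left out of the fit with the block. Leaving out the passage 15 library of either group left 9 members called, all lower (21.4%, against 10% of all genes without the 1× glucose library and 10.1% without the 2-DG library). Counting the most abundant transcript of each gene alone, in place of the sum of its transcripts, left 2 called, Mcm10 and Rrm1, which is 4.76% of the members against 3.88% of all genes and so near the background. Among the genes that lost their call, Gins4, Rfc5 and Ccne1 had 1 transcript each, so their own counts were the same in both fits. The share of all genes called was 17.6% in the main fit.

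**Figure D2:**
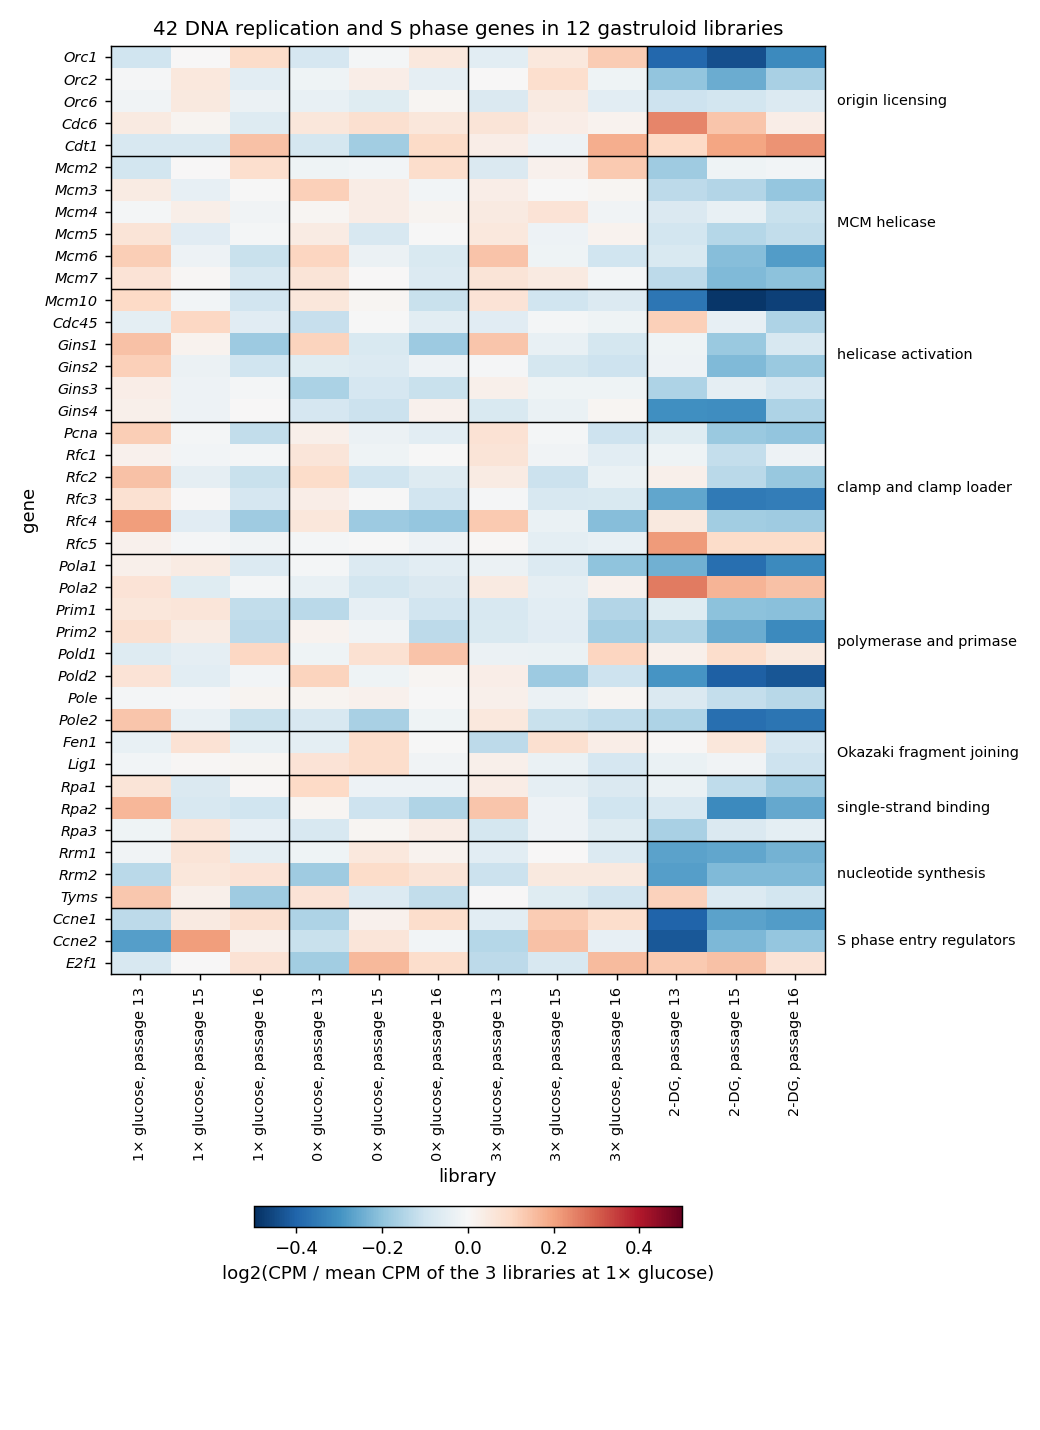
Levels of the 42 genes (rows, grouped by role) in the 12 libraries (columns, by treatment and passage), as log2 of the CPM over the mean CPM of the 3 libraries at 1× glucose. Blue is lower and red higher. The 2-DG columns are blue for most genes, with red in all 3 columns for Cdc6, Cdt1, Rfc5, Pola2, Pold1 and E2f1, and the 0× and 3× glucose columns are paler.

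Since E2F factors are the best known regulators of this group, the promoters of the members were searched for E2F-type letters. Windows from 250 bases before to 50 bases after the transcription start (RefSeq, GRCm38.p6) were at hand for 34 of the 42 genes, 40 windows in all, and were read on both strands for TTTCCCGC, TTTCGCGC, TTTGCCGC and TTTGGCGC. At least 1 of these stood in 13 of the 40 windows (32.5%), against 2.26% of the 32851 windows of all genes. CCAAT, the box that NF-Y recognises, stood in 24 of the 40 (60.0%), against 37.4% of all. Such a match is a description of the letters and not a site shown to be used.

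In 8 members the E2F-type letters lay before the transcription start of the window used. In Orc1, Mcm7, Pola1 and Cdc6 the letters stand inside the annotated span of the gene, which begins further upstream. The stretches of all 8 are shown because they come from genes that fell (Orc1, Mcm7, Rfc3, Pola1), from genes called lower only with the block (Mcm5, Mcm6), from one called higher only with the block (Cdc6) and from one not called (Gins3). Capitals mark the match, and each is read in the direction of its gene, from chr4:108579401-108579453 (plus strand) for Orc1, chr5:138172015-138172074 (minus) for Mcm7, chr5:151651209-151651244 (minus) for Rfc3, chrX:93632260-93632319 (minus) for Pola1, chr8:75109330-75109389 (plus) for Mcm5, chr1:128359782-128359841 (minus) for Mcm6, chr11:98907987-98908046 (plus) for Cdc6 and chr8:95633492-95633551 (plus) for Gins3.
Orc1: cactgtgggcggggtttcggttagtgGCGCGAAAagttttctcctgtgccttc
Mcm7: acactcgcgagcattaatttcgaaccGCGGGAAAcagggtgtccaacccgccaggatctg
Rfc3: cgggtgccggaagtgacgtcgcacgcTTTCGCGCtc
Pola1: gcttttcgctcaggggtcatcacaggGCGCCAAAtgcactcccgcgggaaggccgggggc
Mcm5: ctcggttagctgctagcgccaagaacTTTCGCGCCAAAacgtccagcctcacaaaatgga
Mcm6: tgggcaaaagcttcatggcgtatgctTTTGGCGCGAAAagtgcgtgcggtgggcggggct
Cdc6: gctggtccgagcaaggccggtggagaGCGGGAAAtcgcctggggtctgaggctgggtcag
Gins3: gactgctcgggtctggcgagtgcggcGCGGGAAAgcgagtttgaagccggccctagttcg

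In Mcm5 and Mcm6 matches on both strands overlapped, so that 12 letters are marked. Mcm6, Mcm7, Rfc3 and Mcm3 each held a further match that is not shown. In the other 5 genes the match lay within 50 bases after the start, and only the letters around it are shown, from chr1:20820278-20820301 (minus) for Mcm3, chr12:69228165-69228188 (minus) for Pole2, chr8:122568039-122568062 (plus) for Cdt1, chr7:13278844-13278867 (plus) for Lig1 and chr7:44548766-44548784 (minus) for Pold1.
Mcm3: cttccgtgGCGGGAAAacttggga
Pole2: cggcggtgGCGCCAAAtcgcgaac
Cdt1: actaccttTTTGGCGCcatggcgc
Lig1: caaagtgcGCGCGAAAtctgtgtg
Pold1: atcttgtgGCGGGAAAagc

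Of the 13 genes with a match, 6 fell with 2-DG and none rose, and their median log2 fold change was -0.16. Over all genes tested, 8.51% were called lower and 9.12% higher, with a median of 0.0023. Of the 21 genes whose windows had none, 5 fell and 2 rose, with a median of -0.10, and among the 8 genes that had no window, 2 fell, with a median of -0.13. The largest fall and the largest rise were both in genes without E2F-type letters in the window. The 250 bases before their starts are shown to set them beside each other, with CCAAT on either strand in capitals, from chr2:5012792-5013041 (minus) for Mcm10 and chr19:5964207-5964456 (minus) for Pola2.
Mcm10: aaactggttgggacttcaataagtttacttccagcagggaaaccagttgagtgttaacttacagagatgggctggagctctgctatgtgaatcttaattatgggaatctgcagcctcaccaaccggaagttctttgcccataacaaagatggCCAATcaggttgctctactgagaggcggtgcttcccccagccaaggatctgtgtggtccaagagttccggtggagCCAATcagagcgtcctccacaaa
Pola2: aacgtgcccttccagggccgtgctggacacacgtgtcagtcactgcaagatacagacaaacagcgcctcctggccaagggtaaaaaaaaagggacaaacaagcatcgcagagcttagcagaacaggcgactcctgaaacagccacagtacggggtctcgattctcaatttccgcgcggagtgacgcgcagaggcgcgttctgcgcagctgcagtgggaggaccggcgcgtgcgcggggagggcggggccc

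The stretch of Mcm10 held CCAAT in 2 places and that of Pola2 in none.

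Among the 5 licensing genes, Orc1 and Orc2 fell and Orc6, Cdc6 and Cdt1 were not called. Orc1, the origin recognition subunit that appears in G1, was at 74.9, 80.4 and 85.7 CPM at 1× glucose in passages 13, 15 and 16 and at 61.2, 59.3 and 64.4 CPM with 2-DG. All 2-DG libraries lay below all libraries of the other groups, whose lowest value was 74.9 CPM. Orc1 fell by 23.3% (log2 fold change -0.38 ± 0.066, SE, adjusted p = 0.00365). The annotated span of Orc1 shares 3632 bases with Prpf38a, at 96.2 CPM on average over the libraries. Orc2, a subunit bound through the cycle, went from 147, 153 and 143 CPM to 129, 124 and 132 CPM (log2 fold change -0.20 ± 0.046, adjusted p = 0.0134). Orc6 had 116 to 122 CPM at 1× glucose and 110 to 113 with 2-DG, without overlap (adjusted p = 0.188).

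The 2 loading factors stood on the other side of 0. Cdt1, which brings MCM to the origin and is destroyed once S phase begins, was at 118, 118 and 138 CPM at 1× glucose and at 133, 143 and 146 CPM with 2-DG. The groups overlapped, and the 2-DG library was the higher in each of the 3 passages (log2 fold change 0.18 ± 0.086, adjusted p = 0.192, and 0.00664 with the replicate block). Cdc6, its partner in loading, was at 96.7, 94.6 and 89.6 CPM and at 111, 103 and 95.8 CPM, again higher in every passage (0.14 ± 0.053, adjusted p = 0.0976, and 0.0121 with the block).

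The 6 genes of the MCM2-7 ring all had fitted values below 0, from -0.07 for Mcm2 to -0.19 for Mcm6, with a median of -0.14. Mcm7 went from 547, 524 and 493 CPM to 476, 447 and 452 CPM and Mcm3 from 370, 349 and 359 CPM to 328, 325 and 315 CPM, both without overlap. Mcm7 fell by 12.04% (log2 fold change -0.19 ± 0.052, adjusted p = 0.0332) and Mcm3 fell by 10.2% (-0.16 ± 0.044, adjusted p = 0.0330). The call on Mcm3 was lost without the 1× glucose library of passage 13 or 16 or any 2-DG library (adjusted p 0.0642 to 0.128), and that on Mcm7 without the passage 13 or 15 library at 1× glucose or the passage 15 or 16 library with 2-DG (0.0831 to 0.110).

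Mcm6 differed between passages as well as between treatments. It was at 434, 392 and 369 CPM at 1× glucose and at 378, 344 and 329 CPM with 2-DG, so that the groups overlapped although the 2-DG library was the lower in each passage. The fitted log2 fold change was -0.19 ± 0.084 (adjusted p = 0.158), and the adjusted p was 0.000428 with the block. Mcm5, at 456 to 497 and 430 to 446 CPM, had adjusted p values of 0.107 without and 0.00735 with the block. Mcm4 (345 to 356 and 323 to 340 CPM, adjusted p = 0.222) and Mcm2 (443 to 502 and 418 to 468 CPM, adjusted p = 0.556) were not called in either fit.

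Mcm10, which binds the loaded helicase and is needed for it to start unwinding, had the largest difference of the 42 genes. It was at 186, 172 and 162 CPM at 1× glucose and at 135, 124 and 126 CPM with 2-DG, where the lowest library of any other treatment was at 160 CPM. Mcm10 fell by 26.1% (log2 fold change -0.44 ± 0.068, adjusted p = 0.00217). Of the 4 GINS genes, whose products form 1 complex, Gins4 fell from 82.2, 79.4 and 81.0 CPM to 65.4, 65.3 and 72.6 CPM (-0.26 ± 0.054, adjusted p = 0.0101). Gins2 (80.7 to 93.8 and 74.2 to 84.96 CPM) was called with the block (adjusted p = 0.0267 with it and 0.174 without), and Gins1 and Gins3 were not called in either fit. Cdc45, the third part of the running helicase, had no clear direction, with 78.8, 87.5 and 78.3 CPM at 1× glucose and 88.6, 79.2 and 73.3 CPM with 2-DG (-0.02 ± 0.070, adjusted p = 0.881).

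In the clamp and its loader, 1 gene fell and 1 rose. Rfc3 fell by 19.9%, from 112, 106 and 100 CPM to 88.6, 83.1 and 83.4 CPM (log2 fold change -0.32 ± 0.054, adjusted p = 0.00322). Rfc5, a partner of RFC3 in the same loader, was at 117, 115 and 114 CPM at 1× glucose and at 134, 123 and 123 CPM with 2-DG. This rise of 9.69% (0.13 ± 0.041, adjusted p = 0.0482) was called with the block (adjusted p = 0.00488). Without the block the call was lost when any 1 of the 6 libraries was left out (0.0579 to 0.162). Pcna, the clamp itself, was at 377, 343 and 318 CPM and at 332, 305 and 301 CPM (-0.15 ± 0.069, adjusted p = 0.176, and 0.00758 with the block). Rfc1, Rfc2 and Rfc4 had fitted values from -0.10 to -0.06 and were not called in either fit.

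Of the 8 polymerase and primase genes 4 fell, 1 rose and 3 were not called. Pola1, the catalytic subunit of polymerase alpha, fell by 19.4%, from 149, 151 and 140 CPM to 124, 113 and 118 CPM (log2 fold change -0.31 ± 0.056, adjusted p = 0.00437). Pola2, the B subunit that holds Pola1, was at 111, 102 and 106 CPM at 1× glucose, at 99.8 to 104 CPM at 0× glucose and at 127, 119 and 118 CPM with 2-DG, above all 9 other libraries. The rise was 14.3% (0.19 ± 0.048, adjusted p = 0.0206), but the call was lost without the passage 15 or 16 library at 1× glucose or the passage 13 or 15 library with 2-DG (0.0573 to 0.0982), and the most abundant of its 12 transcripts taken alone gave -0.02. That transcript held 69.2% to 82.0% of the gene's counts at 1× glucose and 48.4% to 78.2% with 2-DG.

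Pold2, the second subunit of polymerase delta, fell by 23.0%, from 102, 94.1 and 96.6 CPM to 79.6, 73.5 and 72.6 CPM (log2 fold change -0.38 ± 0.065, adjusted p = 0.00366). The catalytic subunit Pold1 was at 131 to 148 and 140 to 146 CPM and was not called (0.05 ± 0.062, 95% interval -0.08 to 0.19). In polymerase epsilon, Pole2 went from 44.0, 38.9 and 37.0 CPM to 35.9, 30.8 and 31.0 CPM (-0.30 ± 0.087, adjusted p = 0.0399), a call lost without the passage 13 or 15 library at 1× glucose or the passage 15 or 16 library with 2-DG (0.0752 to 0.130). The catalytic subunit Pole, at 175 to 178 and 160 to 167 CPM without overlap, had an adjusted p of 0.0530, and of 0.0104 with the block. Of the primase genes, Prim2 fell from 68.9, 67.2 and 59.6 CPM to 58.8, 55.0 and 52.3 CPM (-0.24 ± 0.069, adjusted p = 0.0392), a call lost without the same 4 libraries as for Pole2 (0.102 to 0.130), and Prim1 was called with the block (adjusted p = 0.0222 with it and 0.110 without).

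Neither gene for joining the lagging strand was called. Fen1, the flap nuclease, was at 148, 160 and 148 CPM at 1× glucose and at 152, 158 and 143 CPM with 2-DG. Lig1, the ligase, was at 267 to 271 and 251 to 267 CPM. Their fitted log2 fold changes were -0.0055 (95% interval -0.15 to 0.14) and -0.05 (-0.15 to 0.05), and neither was called in either fit. Of the genes for the single-strand binding protein RPA, Rpa2 was at 125, 105 and 104 CPM and at 105, 89.4 and 93.1 CPM (-0.21 ± 0.092, adjusted p = 0.136, and 0.000762 with the block). Rpa1 was called with the block as well (adjusted p = 0.0139 with it and 0.209 without), and Rpa3 was not called in either fit.

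Rrm1 and Rrm2 encode the large and small subunits of ribonucleotide reductase, which makes deoxynucleotides from ribonucleotides. Rrm1 was at 387, 411 and 379 CPM at 1× glucose and at 326, 328 and 333 CPM with 2-DG, without overlap. Rrm1 fell by 16.2% (log2 fold change -0.26 ± 0.042, adjusted p = 0.00293). Rrm2 was at 266, 304 and 307 CPM and at 241, 251 and 251 CPM, without overlap, and was called with the block (-0.24 ± 0.080, adjusted p = 0.0636 without it and 0.000917 with it). Tyms, thymidylate synthase, was at 123, 114 and 98.9 CPM and at 121, 107 and 105 CPM, with a log2 fold change of -0.01 and a 95% interval of -0.20 to 0.18.

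Of the regulators of S phase entry, Ccne1, cyclin E1, fell by 19.5%. It was at 85.9, 97.2 and 99.5 CPM at 1× glucose and at 71.5, 78.2 and 77.7 CPM with 2-DG (log2 fold change -0.31 ± 0.079, adjusted p = 0.0218), and the call was lost without the passage 15 or 16 library at 1× glucose or the passage 13 library with 2-DG (0.0637 to 0.0705). Ccne2, cyclin E2, was at 36.2, 50.6 and 44.4 CPM and at 32.6, 37.4 and 38.2 CPM, with overlap (-0.28 ± 0.120, adjusted p = 0.140, and 0.00490 with the block). The span of Ccne2 shares 5622 bases with Ints8, at 147 CPM on average. E2f1 was at 41.6, 44.0 and 46.3 CPM and at 48.1, 48.6 and 46.0 CPM and was not called in either fit (0.11 ± 0.096, 95% interval -0.10 to 0.33).

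**Figure D3:**
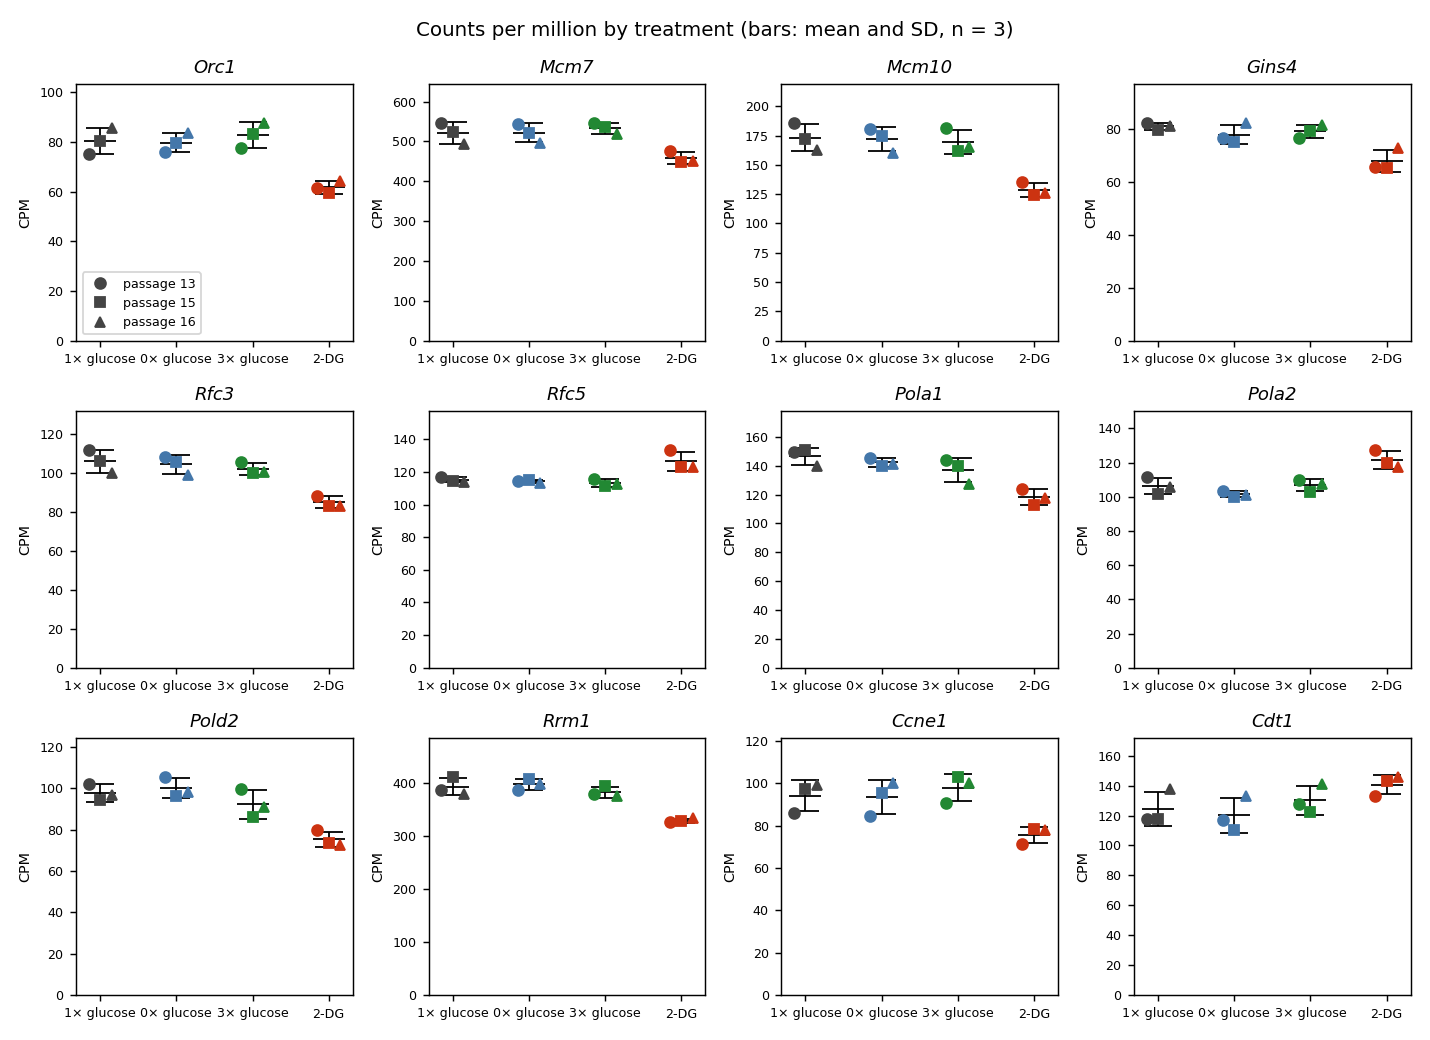
CPM of 12 of the 42 genes (vertical axes, from 0) by treatment, 1 symbol per library with the shape giving the passage, bars for mean and SD (n = 3). In Orc1, Mcm7, Mcm10, Gins4, Rfc3, Pola1, Pold2, Rrm1 and Ccne1 the 3 libraries with 2-DG lie below the 9 others, in Rfc5 and Pola2 above them, and in Cdt1 they overlap the others.

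The shares of single transcripts varied within some genes. Of the counts of Mcm5, a non-coding transcript held 50.4% to 61.1% at 1× glucose and 10.7% to 48.1% with 2-DG, and a coding one held 24.3% to 34.8% and 35.7% to 61.6%. For Orc2, the main transcript held 31.9% to 87.8% over the 12 libraries. These shares depend on how reads common to several transcripts were divided, while the sum per gene does not divide them.

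Against 0× glucose, which held no glucose at all, the same 2-DG libraries were compared a further time, so the values are not independent of those above. Of the 42 genes, 14 were called (33.3%, against 18.9% of all genes), 12 lower (28.6% against 9.04%) and 2 higher (4.76% against 9.86%). The median log2 fold change was -0.10 beside 0.0005 over all genes. When only genes with a mean of at least 100 counts were tested, 15 were called (35.7%, against 24.2% of all genes). Every 2-DG library lay below every 0× glucose library in 20 members (47.6%, against 18.6% of all genes) and above in 3 (7.14%, against 19.3%). The genes called lower were Orc1, Orc2, Mcm3, Mcm7, Mcm10, Gins4, Rfc3, Pola1, Pold2, Pole, Rrm1 and Ccne1, and Pola2 and Rfc5 were again the ones called higher. Mcm10 fell by 25.4% (log2 fold change -0.42 ± 0.068, adjusted p = 0.00235), Pold2 fell by 24.7% (-0.41 ± 0.065, adjusted p = 0.00214) and Orc1 fell by 22.6% (-0.37 ± 0.066, adjusted p = 0.00385), and Pola2 was 19.7% higher (0.26 ± 0.048, adjusted p = 0.00460). Orc1, Mcm10, Rfc3, Pola1, Pola2, Pold2 and Rrm1 were called with each of the 6 libraries left out. The others lost their call, namely Orc2 without the passage 15 library of either group (adjusted p 0.0558 and 0.0598), Mcm3 without the 2-DG library of passage 16 (0.0546), Mcm7 without passage 13 or 15 of 0× glucose or 15 or 16 of 2-DG (0.0828 to 0.110), Gins4 without passage 13 or 16 of 0× glucose or 13 or 15 of 2-DG (0.0513 to 0.112), Pole without any but the 2-DG library of passage 13 (0.0703 to 0.135), Ccne1 without passage 15 or 16 of 0× glucose or 13 or 16 of 2-DG (0.0522 to 0.0830) and Rfc5 without any 0× glucose library or the 2-DG library of passage 13 (0.0682 to 0.105). With the passage as a block 26 were called (61.9%, against 43.1% of all genes), 23 lower (54.8% against 21.5%) and 3 higher (7.14% against 21.5%), which added Mcm4, Mcm5, Mcm6, Pcna, Prim2, Pole2, Lig1, Rpa1, Rpa2, Rrm2 and Ccne2, lower, and Cdt1, higher. Without the 0× glucose library of passage 15, 9 were called (21.4%, against 11.8% of all genes), and with the most abundant transcript alone 2, again Mcm10 and Rrm1 (4.76%, against 4.61%).

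Without glucose and without the inhibitor, no member was called against 1× glucose, where 0.0118% of all genes were (0.0177% with the block). The unadjusted p was under 0.05 for 306 genes (1591 with the block), and DESeq2 called 12. The fitted differences of the 42 genes ran from -7.88% to 4.82%, and their 95% intervals reached from -0.37 to 0.25 on the log2 scale. Gins3 had the lowest value and was the only member with an unadjusted p under 0.05 in the fit without the block (3 members with it). It was at 36.5, 38.5 and 37.7 CPM at 0× glucose and at 41.8, 40.1 and 40.5 CPM at 1× glucose, without overlap (log2 fold change -0.12 ± 0.048, unadjusted p = 0.0318, adjusted p = 1.00). One further member, Cdc6, had groups that did not overlap, with 0× glucose above. That is 2.38% of the members in either direction, against 2.94% of all genes lower and 2.69% higher. Mcm10, the member that fell most with 2-DG, was at 180, 174 and 160 CPM at 0× glucose, where the 1× glucose libraries ran from 162 to 186 CPM.

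At 3× glucose no member was called either, and 0.0% of all genes were. The differences ran from -6.66% to 4.69%, with 95% intervals from -0.30 to 0.26 on the log2 scale. No member had an unadjusted p under 0.05 in the fit without the block, and 3 had one with it. In no member were the groups apart (against 2.38% of all genes lower and 2.09% higher). Over all genes 178 had an unadjusted p under 0.05 (876 with the block), and DESeq2 called 2. DESeq2 also called 0 members at 0× and at 3× glucose, as did the fit with the block. A simulation of the size of 1 treatment against another drew 200 changed genes from all with a mean of at least 100 counts. Of those changed by 0.5 on the log2 scale 26% were recovered, and of those changed by 1, 86.5%. Their spread followed the trend over all genes in the fit without the block, so these shares are not those of the members. The members had at least 1113 counts in every library and a median SE of 0.0633 at 0× and 0.0632 at 3× glucose.

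**Figure D4:**
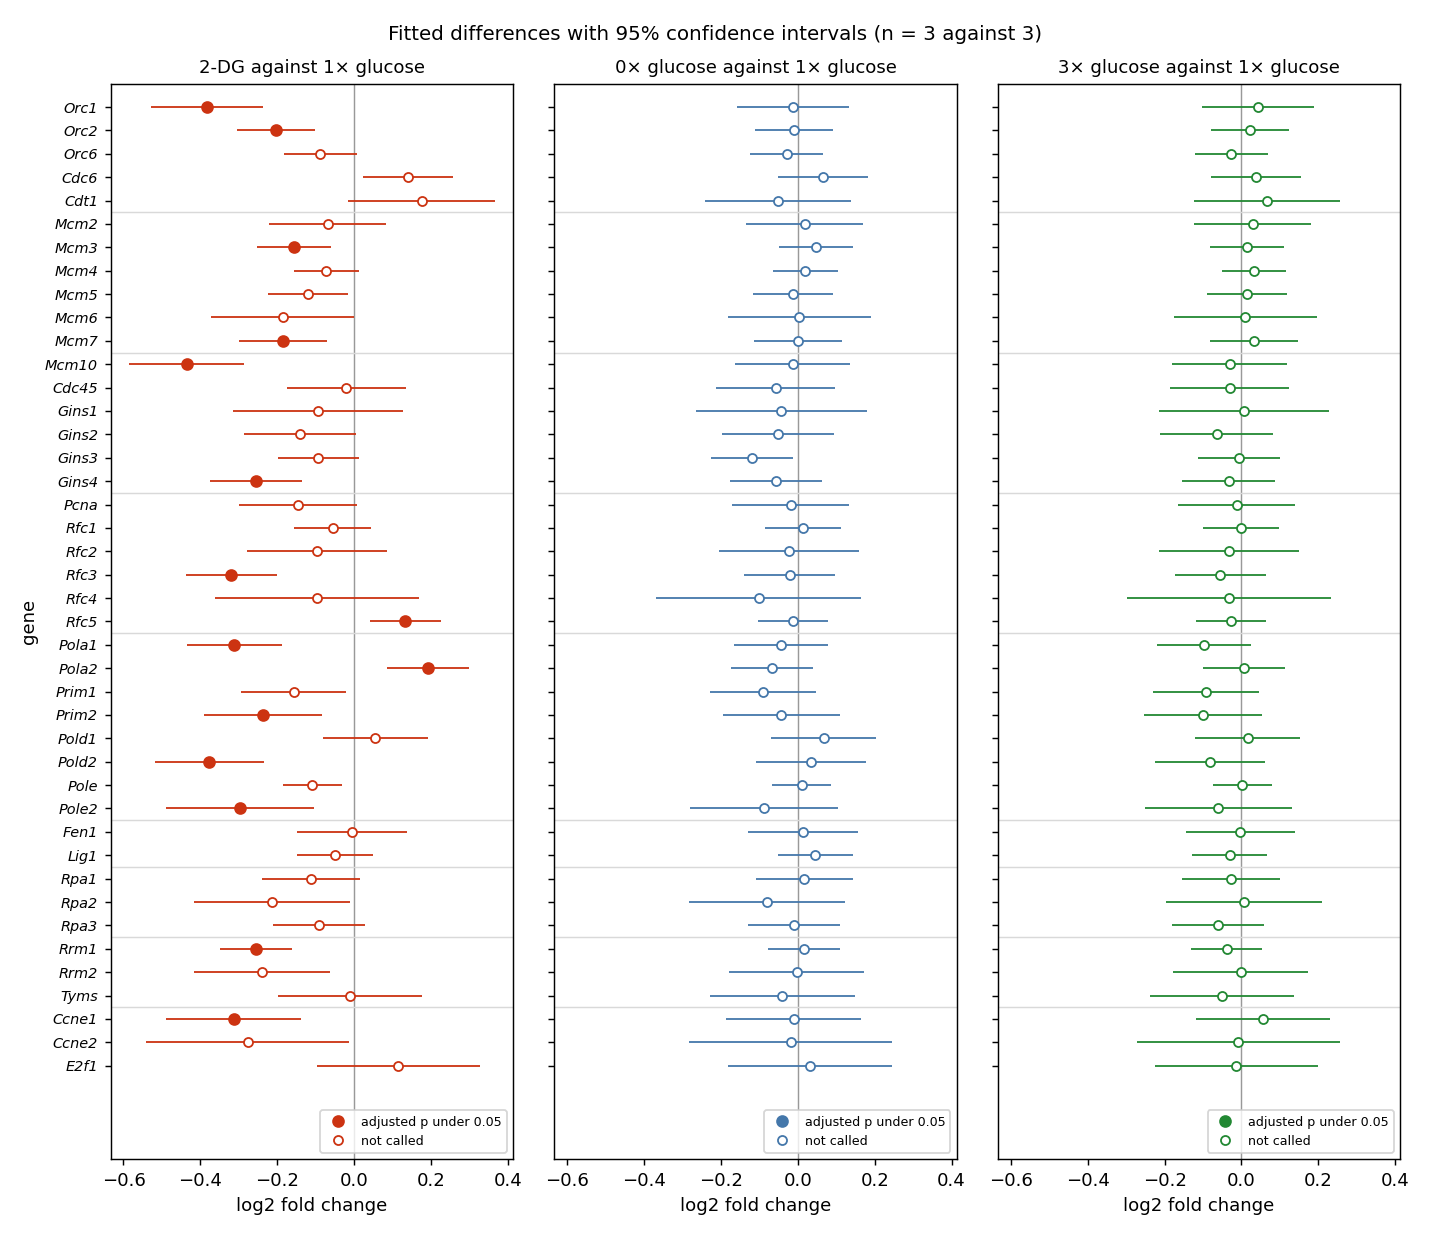
Fitted log2 fold change (horizontal axis) with its 95% confidence interval for each of the 42 genes against 1× glucose, for 2-DG, 0× glucose and 3× glucose, 3 libraries in each group. Filled points have an adjusted p under 0.05. With 2-DG 15 points are filled and 36 lie left of 0, and at 0× and 3× glucose none is filled.

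The genes around this machinery were read from longer lists of other replication, S phase entry and mitosis genes. Of 51 other replication genes 13 fell with 2-DG against 1× glucose and 1 rose (25.5% and 1.96%, against 8.51% and 9.12% of all genes), with a median log2 fold change of -0.10 beside 0.0023 over all genes. Asf1b, a histone chaperone at the fork, fell from 60.4 ± 1.83 to 42.2 ± 1.52 CPM (log2 fold change -0.52 ± 0.046, adjusted p = 0.000113), a larger fitted fall than that of any of the 42 members. Orc5 of the origin recognition complex fell from 91.5 ± 5.62 to 70.7 ± 4.58 CPM (-0.37 ± 0.082, adjusted p = 0.0114). The call on Orc5 held with each library left out, but its adjusted p reached 0.344 in another alternative fit. Pold4, the small subunit of polymerase delta, was low, with 3.33 ± 0.405 and 2.20 ± 0.0427 CPM (-0.60 ± 0.155, adjusted p = 0.0239), and Timeless (-0.15) and Orc4 (-0.21) fell less. Cdc7, the kinase that triggers the loaded helicase, was the gene that rose, from 61.0 ± 3.05 to 72.9 ± 6.62 CPM (0.26 ± 0.073, adjusted p = 0.0347). Each of Pold4, Timeless, Orc4 and Cdc7 lost its call in 3 to 5 of the 6 fits that left out a library (adjusted p 0.0505 to 0.122), all 4 of them without the 2-DG library of passage 15. Further libraries whose absence ended a call were passage 13 of 1× glucose and 13 and 16 of 2-DG for Pold4, 16 of both groups for Timeless, 13 and 15 of 1× glucose and 13 and 16 of 2-DG for Orc4, and 15 and 16 of 1× glucose and 13 of 2-DG for Cdc7. Against 0× glucose Chaf1b (-0.34), Uhrf1 (-0.34), Chaf1a (-0.15) and Brca2 (-0.18) were called lower. These calls were lost without the 2-DG library of passage 16 for Chaf1b (0.0644), without that library, 13 of 2-DG or 13 or 15 of 0× glucose for Chaf1a (0.0955 to 0.172), and without any library but 0× glucose of passage 13 for Brca2 (0.0549 to 0.0843).

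The 32 S phase entry genes moved both ways, with 7 lower (21.9%, against 8.51% of all genes), 2 higher (6.25%, against 9.12%) and a median of -0.08. Ccnd2, cyclin D2, which drives cells out of G1, rose from 357 ± 48.3 to 546 ± 19.3 CPM (log2 fold change 0.62 ± 0.097, adjusted p = 0.00229). Cdkn1b, p27, an inhibitor of cyclin E kinase, rose from 41.9 ± 4.60 to 62.8 ± 4.57 CPM (0.58 ± 0.128, adjusted p = 0.0118). E2f6, a repressor of the E2F family, fell from 104 ± 4.33 to 68.7 ± 0.745 CPM (-0.59 ± 0.056, adjusted p = 0.000165). Fbxo5, which restrains the destruction of cyclins in S phase, fell from 84.3 ± 3.15 to 70.7 ± 1.09 CPM (-0.25 ± 0.054, adjusted p = 0.00996). These calls held with each library left out. In another alternative fit the adjusted p reached 0.104 for Ccnd2, 0.0591 for Cdkn1b, 0.892 for E2f6 and 0.0594 for Fbxo5. Cdk6 (-0.41) and Wee1 (-0.14) were called lower, and each lost its call in 5 of 6 fits that left out a library, the exception being the passage 16 library with 2-DG for Cdk6 and the passage 15 library at 1× glucose for Wee1 (adjusted p 0.0654 to 0.138). Against 0× glucose Cks1b (-0.28) fell, and Rb1 (0.44) was the gene added to those that rose, with calls lost without the 2-DG library of passage 16 for Cks1b (0.0573) and without any but the 0× glucose library of passage 15 for Rb1 (0.0584 to 0.125). Cdkn1a, p21, was at 112 ± 5.90 and 112 ± 4.01 CPM (0.0050 ± 0.071, adjusted p = 0.975), and Ccnd1, cyclin D1, at 198 ± 39.6 and 243 ± 27.9 CPM (adjusted p = 0.359, and 0.00113 with the block).

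Of 40 mitosis genes 12 fell and 1 rose (30.0% and 2.5%, against 8.51% and 9.12% of all genes), with a median of -0.11. Ccnb2, cyclin B2, fell from 115 ± 5.44 to 77.5 ± 4.02 CPM (log2 fold change -0.56 ± 0.050, adjusted p = 0.000121), Bub1, a spindle checkpoint kinase, from 247 ± 16.2 to 195 ± 9.03 CPM (-0.34 ± 0.066, adjusted p = 0.00649) and Cenpa, the centromere histone, from 167 ± 6.81 to 135 ± 1.14 CPM (-0.30 ± 0.051, adjusted p = 0.00347). With no library left out, the adjusted p reached 0.250 for Bub1 and 0.328 for Cenpa in an alternative fit. Ect2 (-0.18) and Ttk (-0.15) fell less, and against 0× glucose so did Cenpf (-0.16) and Ube2c (-0.14). The call on Ect2 was lost without the 2-DG library of passage 16 (0.0588), that on Ttk without passage 15 of 1× glucose or 13 or 15 of 2-DG (0.0516 to 0.0740), that on Cenpf without passage 13 or 15 of either group (0.0503 to 0.0921) and that on Ube2c without any 1 of the 6 (0.0538 to 0.139). Cdc25b, a phosphatase that starts mitosis, rose from 17.95 ± 4.96 to 39.0 ± 4.11 CPM (1.12 ± 0.261, adjusted p = 0.0151, and 0.0503 without the passage 13 library with 2-DG). Its adjusted p reached 0.649 in another alternative fit. The general proliferation genes Mki67 (662 ± 94.2 and 618 ± 41.0 CPM, adjusted p = 0.578) and Top2a (837 ± 39.2 and 777 ± 28.6 CPM, adjusted p = 0.215) were not called. At 0× and at 3× glucose 0 genes of the 3 lists were called.

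Members also differed between passages of the ES cells. The fit held the treatment as a term, so that each passage had 4 libraries. A passage is 1 culture, and these p-values measure the spread between libraries from that culture. Between passages 15 and 13, 20 members were called (47.6%, against 41.8% of all genes), 5 higher in passage 15 (11.9% against 20.8%) and 15 lower (35.7% against 20.9%). Between passages 16 and 13, 24 were called (57.1%, against 40.2%), 7 higher (16.7% against 20.4%) and 17 lower (40.5% against 19.7%). Both comparisons rest on the same passage 13 libraries. Among genes with a mean of at least 100 counts, 21 and 25 members were called, 50.0% and 59.5%, against 50.8% and 50.5% of all genes. The number called in passage 15 was thus near the background. Without the treatment term 4 and 7 were called, 9.52% and 16.7% of the members, below the 18.9% and 19.0% of all genes. For passage 15 against 13, 11 were called without the 1× glucose library of passage 13 (26.2%, against 30.9% of all genes) and 13 without the 3× glucose library of passage 15 (31.0%, against 33.2%). All 4 libraries of passage 15 lay above those of passage 13 in 2 members (4.76%, against 11.3% of all genes) and below in 2 (4.76%, against 9.87%), and those of passage 16 above in 2 (4.76%, against 11.6%) and below in 6 (14.3%, against 10.3%). Between passages 16 and 15 only Cdt1 was called, 2.38% of the members against 4.2% of all genes (2.19% higher and 2.01% lower). In 2 members the passage 16 libraries all lay below those of passage 15 (4.76%, against 2.99% of all genes), and in none above (against 2.56%). Marker genes of cell types differed between passages as well. Against passage 13, 5 of 6 endoderm markers were called higher in passage 15 and 6 of 6 in passage 16. Of 6 early neuron markers 6 and 4 were called lower, and neither list had a call the other way. Of 8 neural progenitor markers 5 and 6 were called lower and 2 and 2 higher. Of 10 mesoderm markers 6 and 4 were called lower and 1 and 3 higher. The part of these markers in the passage results was not tested.

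The cyclin E genes stood higher in both later passages. Ccne2 was at 37.2 ± 3.62 CPM in passage 13, 45.5 ± 5.75 in passage 15 and 42.1 ± 2.72 in passage 16 (SD, n = 4), which made it 22.0% higher in passage 15 (adjusted p = 0.00153) and 13.4% higher in passage 16 (adjusted p = 0.0183), the latter lost without the 1× glucose library of passage 13 or 16 or the 2-DG library of passage 16 (0.0541 to 0.0708). Ccne1 was at 83.2 ± 8.29, 93.5 ± 10.7 and 94.4 ± 11.1 CPM, 12.2% and 13.2% higher (adjusted p = 0.000799 and 0.000505). Rrm2 was at 259 ± 13.1, 292 ± 27.8 and 291 ± 27.0 CPM (12.3% and 12.1% higher, adjusted p = 0.00299 and 0.00334). Mcm2, at 444 ± 19.8, 472 ± 5.92 and 497 ± 21.0 CPM, was 6.25% and 11.9% higher (adjusted p = 0.0366 and 0.00155), the first of which was lost without any 1 of the 1× glucose, 3× glucose and 2-DG libraries of passages 13 and 15 (0.0926 to 0.199). Fen1 was called higher in passage 15 alone, and Orc1, Cdt1 and Pold1 in passage 16 alone, although a difference between the later passages was called for Cdt1 only. Fen1 was lost without passage 15 of 0× glucose or 13 or 15 of 3× glucose (0.0506 to 0.0575), and Pold1 without passage 13 of 0× glucose or 16 of 1× or 3× glucose (0.0504 to 0.0619).

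Of the 6 clamp and clamp loader genes, 4 were lower and 2 were not called in passage 15, and the same counts held in passage 16. Rfc4 was at 71.5 ± 3.73, 61.3 ± 3.30 and 58.0 ± 0.661 CPM and fell by 14.4% in passage 15 and by 18.9% in passage 16 (adjusted p = 0.000692 and 0.000117), the largest fall between passages among the members. Rfc2 was at 125 ± 4.72, 111 ± 2.88 and 111 ± 5.16 CPM (-11.3% and -11.5%), without overlap in either comparison. Pcna was at 356 ± 19.1, 333 ± 18.9 and 319 ± 13.4 CPM. Further genes lower in both later passages were Mcm6 at 420 ± 28.2, 380 ± 24.0 and 362 ± 22.6 CPM (-9.68% and -13.8%, adjusted p = 0.000740 and 7.41e-05), Gins1 at 53.9 ± 2.83, 48.1 ± 2.83 and 46.1 ± 1.79 CPM (-10.7% and -14.4%) and Tyms at 118 ± 4.83, 109 ± 3.52 and 103 ± 2.82 CPM (-8.18% and -13.1%). Rpa2 was at 116 ± 9.16, 102 ± 8.73 and 100 ± 5.03 CPM (-12.3% and -13.7%). The calls on Mcm5, Mcm10, Gins2, Rfc1, Pola2 and Pole2 in passage 15 and on Gins2, Pole2, Pola1 and Cdc6 in passage 16, all lower, were each lost in 1 to 7 of the 8 fits that left out a library. The calls in passage 15 on Pcna were lost without the passage 15 libraries at 0× glucose, 1× glucose or 2-DG or the passage 13 library at 1× glucose (adjusted p 0.0515 to 0.0904), on Gins1 without the passage 13 library at 1× glucose or the passage 15 libraries at 3× glucose or with 2-DG (0.0501 to 0.0580), and on Tyms without the passage 13 library at 1× glucose or the passage 15 library with 2-DG (0.0506 and 0.0617).

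Between the later passages Cdt1 was at 123 ± 13.9 CPM in passage 15 and 139 ± 5.35 CPM in passage 16, 13.4% higher (log2 fold change 0.18 ± 0.037, adjusted p = 0.0282). This call was lost without any 1 of the 0×, 1× and 3× glucose libraries of the 2 passages (adjusted p 0.0917 to 0.129).

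**Figure D5:**
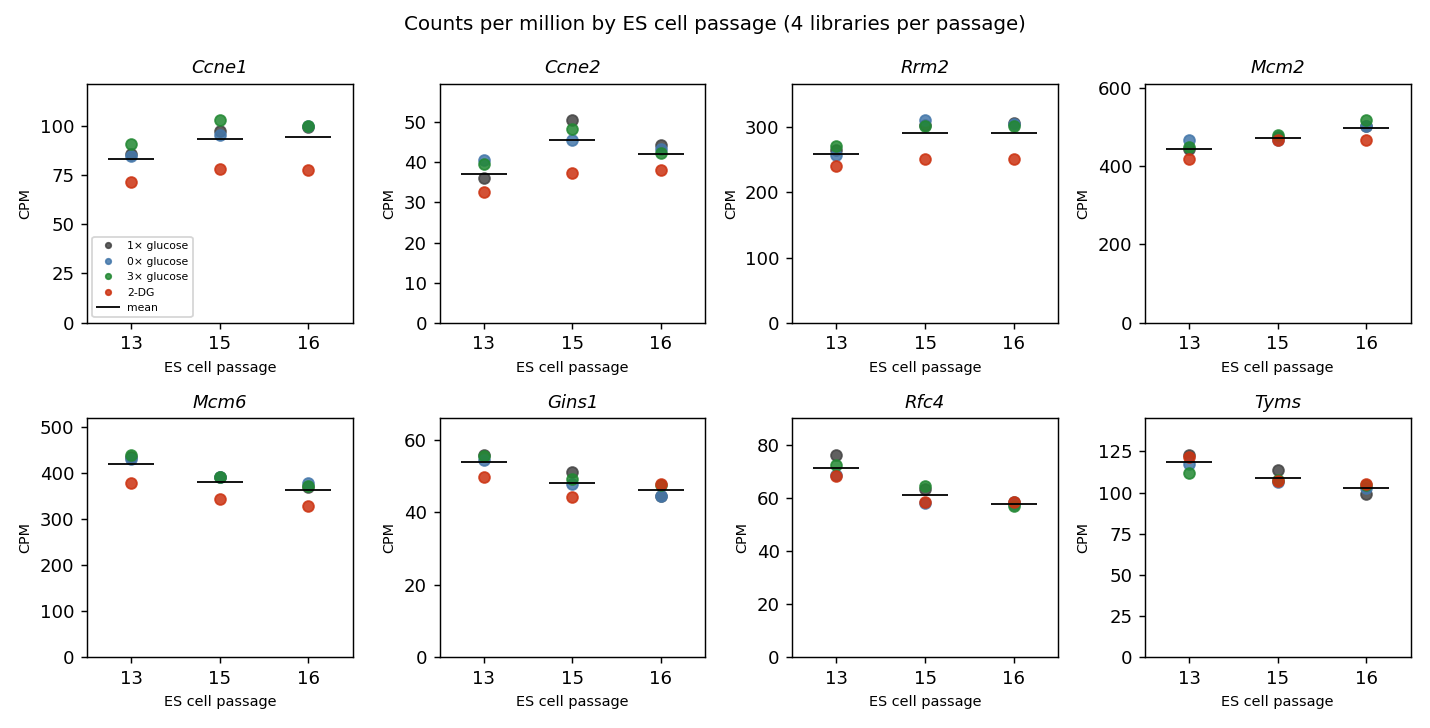
CPM of 8 of the 42 genes (vertical axes, from 0) by passage of the ES cells, with 1 point per library coloured by treatment and a bar for the mean of the 4 libraries. Ccne1, Ccne2, Rrm2 and Mcm2 have their lowest mean in passage 13 and Mcm6, Gins1, Rfc4 and Tyms their highest, and the 2-DG points of Ccne1, Rrm2 and Mcm6 lie lowest within every passage.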

How the data were processed

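PolyA RNA was sequenced from 12 pools of gastruloids. Per the labels, the submitters' processing notes name Trim Galore, HISAT2, SAMtools, Picard, StringTie and DESeq2 and the build mm10, without versions. The values deposited by the authors are estimated counts per RefSeq transcript (120312 transcripts), made after removal of PCR duplicates, and the strand setting of the counting was not given in the sources used here. The authors' tables of their own comparisons hold fold changes and p-values and were not used.

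Counts of all transcripts of a symbol, deposited as whole numbers, were added (38911 genes, of which 26382 had a count). Genes that passed edgeR's filterByExpr (16966) were scaled by TMM (factors 0.977 to 1.03) and tested with edgeR 4.0.16 in R 4.3.3, by the quasi-likelihood test on all 4 groups without a passage term, and for passages with the treatment as a term. Alternatives were no filter, a mean of at least 100 counts, median-of-ratios factors, DESeq2 1.42.0, the replicate block, only the groups compared, no treatment term (passages), the most abundant transcript alone and leaving out each library. The treatment fits that left out a library held no passage term. The labels tie libraries to an ES cell passage. Deviations from the treatment means correlated between libraries of 1 passage with r from 0.0963 to 0.623 (18 pairs) and between others with r from -0.440 to 0.191 (36 pairs). At most 0.568% of genes had identical counts in any pair of libraries. With 3 libraries a group, exact permutation of 1 gene's values gives no two-sided p under 0.1, so adjusted p-values from the fit across genes were used. On simulated data, 5.45% of the calls were false at a log2 change of 0.5.

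The members and the gene lists were chosen with earlier results of these data known. Named genes outside the members are the 3 highest and 3 lowest fitted log2 fold changes among the called genes of each list in each 2-DG comparison, all of them where fewer were called, with Ccnd1, Cdkn1a, Top2a and Mki67 in any case and T, Sox1, Pou5f1, Tubb3 and Col1a1 as leading markers. RefSeq annotation (GRCm38.p6) has another gene overlapping the span of 18 members, and for 12 of them one above 1 CPM.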

Additional observations from a re-analysis of the deposited data

How the results depend on the processing

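At 0× and at 3× glucose against 1× glucose, 0 of the 42 genes were called under each alternative run. With 2-DG against 1× glucose, 15 members were called and the alternatives gave 27 with the replicate block (64.3%, against 41.3% of all genes), 18 with DESeq2 (42.9% against 21.7%), 8 with only the groups compared (19.0% against 11.5%), 2 with the most abundant transcript alone (4.76% against 3.88%) and 9 to 12 with a library left out (21.4% to 28.6% against 10% to 13.6%). Against 0× glucose, 14 were called, with 26 under the replicate block (61.9% against 43.1%), 17 with DESeq2 (40.5% against 22.8%), 2 with the most abundant transcript alone (4.76% against 4.61%) and 9 to 11 with a library left out (21.4% to 26.2% against 11.8% to 15.1%). Between passages 15 and 13, 16 and 13, and 16 and 15, the 20, 24 and 1 members called became 4, 7 and 0 without a treatment term (9.52%, 16.7% and 0.0%, against 18.9%, 19.0% and 0.053% of all genes), 9, 14 and 0 with the most abundant transcript alone (21.4%, 33.3% and 0.0%, against 11.3%, 11.6% and 0.0476%), and 11 to 21, 20 to 24 and 0 to 1 with a library left out. For 15 against 13 the lowest counts were 11 without the 1× glucose library of passage 13 and 13 without the 3× glucose library of passage 15. Among the 42 genes, the block changed no other call than those given beside the results. The cause of these shifts was not tested.

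Single genes that changed direction were not called before or after, except Pola2. With the most abundant transcript alone, log2 fold changes of 2-DG against 1× glucose became 0.0758 for Cdc45, -0.015 for Pola2 and 0.0926 for Fen1, and against 0× glucose -0.1408 for Cdc6, -0.1316 for Cdc45 and 0.2471 for Fen1. With only the groups compared, Rfc4 became -0.0035 against 0× glucose. With a library left out, the values against 1× glucose ran from -0.0977 to 0.0419 for Cdc45, from -0.1817 to 0.0207 for Rfc4, from -0.042 to 0.0326 for Fen1 and from -0.0951 to 0.0626 for Tyms. Against 0× glucose they ran from -0.0363 to 0.1054 for Cdc45, -0.1156 to 0.0343 for Gins1, -0.0715 to 0.093 for Rfc4, -0.0533 to 0.026 for Pold1, -0.0495 to 0.0252 for Fen1, -0.0368 to 0.0882 for Tyms and -0.0085 to 0.1532 for E2f1.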
